A study of Mus musculus with 36 samples.

Results

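Of the 18009 CpG clusters in the reduced representation bisulfite sequencing (RRBS) data of B3 cells, 402 lay at the promoters of long noncoding RNA (lncRNA) genes. A CpG cluster was a run of at least 20 listed positions, each at most 100 bp from the next. It was counted as an lncRNA promoter region if it was autosomal and overlapped the 1000 bp on either side of a transcription start of a GENCODE M21 gene of the types lincRNA, antisense, processed_transcript or bidirectional_promoter_lncRNA. Clusters within 1000 bp of a protein-coding start were left out. In 23 of the 402 regions every position lacked a value in at least 1 sample, and the other 379 were analysed, at 336 lncRNA genes counted by the nearest start.

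B3 is a mouse pre-B cell line that models the pre-BI stage of B cell development. Its cells were transduced with MSCV retroviral vectors and used as sorted GFP-positive pools, which either carried Ikaros fused to the ERt2 hormone-binding domain (HA-Ikaros-ERt2-IRES-GFP, the Ikaros series) or the vector with ERt2 but without Ikaros (the Control series). ERt2 keeps a fused protein out of the nucleus until 4-hydroxytamoxifen (4-OHT) is added. Each series was sampled at 0 h and then at 2, 6, 12, 18 and 24 h, with 3 replicates each time, which gave 36 samples, 18 per series. The labels give 4-OHT at 0.5 µM for every sample, whereas the methods describe the first time point as taken without the drug. Replicates 1 and 3 were batches 1 and 4, and replicate 2 was batch 2 at 0 h and batch 3 afterwards. Both series thus carried a retroviral vector, and any difference between them compares separate transduced pools.

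LncRNAs are transcripts without a long open reading frame, and many of them are spliced and made by RNA polymerase II from promoters like those of protein-coding genes. Methylation of the cytosine in CpG dinucleotides at a promoter is commonly found where the gene is silent, and CpG-rich promoters of expressed genes are usually free of it. Imprinted lncRNA genes are an exception, since the copies from the mother and the father carry different methylation.

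The sequences of 9 regions show how the measured CpG sites lay, and the 9 were chosen because the results turn on them. They were read from GRCm38, on the strand of the lncRNA gene and from 5′ to 3′, and the capitals mark each CG dinucleotide for which the deposited tables list at least 1 cytosine. The first regions were an unmethylated region upstream of Malat1, an abundant nuclear lncRNA (chr19:5803148-5803396, minus strand) and a methylated region at Fendrr, an lncRNA of the embryonic lateral plate (chr8:121083117-121083193, minus strand).
Malat1: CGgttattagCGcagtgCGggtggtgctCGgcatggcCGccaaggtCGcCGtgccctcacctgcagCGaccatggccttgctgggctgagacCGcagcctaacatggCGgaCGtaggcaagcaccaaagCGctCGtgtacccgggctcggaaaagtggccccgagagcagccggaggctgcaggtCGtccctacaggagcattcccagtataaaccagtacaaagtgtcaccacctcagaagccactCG
Fendrr: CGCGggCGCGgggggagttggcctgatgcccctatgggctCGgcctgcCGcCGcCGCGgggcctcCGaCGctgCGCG

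The next region lay downstream of the start of Kcnq1ot1, an imprinted lncRNA that silences neighbouring genes on the paternal chromosome (chr7:143295405-143295611, minus strand). Its level was intermediate, and 13 of the 16 CG dinucleotides in it were listed.
Kcnq1ot1: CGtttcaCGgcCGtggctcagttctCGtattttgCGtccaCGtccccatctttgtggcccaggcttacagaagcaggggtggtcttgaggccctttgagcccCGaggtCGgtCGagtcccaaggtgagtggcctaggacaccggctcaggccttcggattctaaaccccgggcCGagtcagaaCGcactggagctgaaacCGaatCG

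The following 3 regions passed the test between the series with low levels: 2810410L24Rik (chr11:120189615-120189914, minus strand, over the start), 8030423F21Rik (chr5:52618579-52618878, minus strand, downstream of the start) and Gm29442 (chr7:16618838-16619137, minus strand, downstream of the start).
2810410L24Rik: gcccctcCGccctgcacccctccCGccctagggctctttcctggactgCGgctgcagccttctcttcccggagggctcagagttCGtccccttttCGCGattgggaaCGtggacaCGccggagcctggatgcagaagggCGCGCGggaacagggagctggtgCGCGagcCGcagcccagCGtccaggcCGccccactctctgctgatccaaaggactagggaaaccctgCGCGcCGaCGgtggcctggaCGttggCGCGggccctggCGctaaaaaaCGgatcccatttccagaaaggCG
8030423F21Rik: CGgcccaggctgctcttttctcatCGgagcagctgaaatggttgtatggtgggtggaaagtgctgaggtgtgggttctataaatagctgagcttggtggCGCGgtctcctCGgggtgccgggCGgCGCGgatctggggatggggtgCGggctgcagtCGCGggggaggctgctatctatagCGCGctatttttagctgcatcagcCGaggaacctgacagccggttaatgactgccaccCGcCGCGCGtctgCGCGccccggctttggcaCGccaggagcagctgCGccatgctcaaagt
Gm29442: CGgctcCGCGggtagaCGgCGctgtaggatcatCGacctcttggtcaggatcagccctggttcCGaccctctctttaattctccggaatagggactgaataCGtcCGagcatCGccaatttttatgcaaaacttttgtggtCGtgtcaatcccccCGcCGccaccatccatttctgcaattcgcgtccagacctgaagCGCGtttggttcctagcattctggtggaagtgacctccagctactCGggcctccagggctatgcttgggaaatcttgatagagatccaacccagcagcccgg

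The last 3 regions also passed that test and had higher or uneven levels: Gm31816 (chr9:47368280-47368413, minus strand), the start of 1700016P03Rik, the host gene of miR-212 and miR-132 (chr11:75172410-75172709, plus strand), and the part of the Gm44970 region where the level changed most sharply (chr7:24954438-24954737, plus strand).
Gm31816: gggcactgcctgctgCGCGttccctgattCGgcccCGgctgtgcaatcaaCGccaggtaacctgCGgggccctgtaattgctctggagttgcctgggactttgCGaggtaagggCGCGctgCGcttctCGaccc
1700016P03Rik: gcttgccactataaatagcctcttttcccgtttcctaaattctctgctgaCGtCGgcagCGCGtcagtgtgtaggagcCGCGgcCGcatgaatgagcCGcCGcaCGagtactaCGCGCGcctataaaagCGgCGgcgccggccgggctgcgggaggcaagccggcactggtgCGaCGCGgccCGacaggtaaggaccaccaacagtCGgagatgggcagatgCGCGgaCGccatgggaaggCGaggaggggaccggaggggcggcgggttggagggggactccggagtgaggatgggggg
Gm44970: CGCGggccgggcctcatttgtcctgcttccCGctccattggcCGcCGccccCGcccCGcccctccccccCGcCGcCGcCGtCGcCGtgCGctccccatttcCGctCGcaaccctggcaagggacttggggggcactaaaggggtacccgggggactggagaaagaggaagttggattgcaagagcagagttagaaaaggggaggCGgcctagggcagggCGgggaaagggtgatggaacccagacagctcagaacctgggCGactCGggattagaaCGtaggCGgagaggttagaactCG

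The letters TGGGAA, the core that Ikaros zinc fingers bind, or the reverse complement TTCCCA occurred in the 300 bp at the centre of 84 of the 379 regions (22.2%). The share was 16.0% over all autosomal clusters in windows of the same length, and 26.5% of the lincRNA regions and 14.4% of the antisense regions held the letters. Of the 24 regions that differed between the series (described further on), 5 (20.8%) held them, against 22.3% of the other 355. A match of 6 letters is a description of the sequence and not a binding site.

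The regions were not spread evenly over the lncRNA genes of the annotation. Of 9065 autosomal lncRNA genes, 1741 (19.2%) had a cluster within 1000 bp of a start, and 1710 clusters with complete values at lncRNA starts were left out because a protein-coding start lay as close. Of the 379 regions, 179 overlapped the lncRNA start itself and 104 (27.4%) lay inside a protein-coding gene, 63 of them over a coding exon. A region held 20 to 1034 listed positions, and the median was 39. Since both strands are listed, 151 regions held fewer than 20 CG dinucleotides. The label was also compared with a second annotation. In RefSeq, 27 of the 379 regions lay within 1000 bp of a protein-coding start, among them regions named for Zswim6, Gm48623 (near Cplx2) and 2410017I17Rik (near Gm10499), so that for those regions the start of a coding gene may lie in the window.

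The deposited values carry no read numbers, so the depth behind a level is unknown. In place of it, empty values can be counted, and they ranged from 0.139% to 3.18% of the listed positions in the Ikaros samples and from 0.110% to 11.6% in the Control samples, where Control 0 h replicate 1 was the highest. Levels at exactly 0 or 1 were more frequent in the Ikaros samples, at 36.2% ± 7.63 (SD, n = 18) against 27.9% ± 4.89 (SD, n = 18), with 59.1% in Ikaros 24 h replicate 2. Control 24 h replicate 2 lay nearer to the Ikaros mean than to the Control mean in 11 of the 24 regions that differed between the series. The other Control samples did so in 1 to 10 of the 24, and the Ikaros samples lay nearer to the Control mean in 3 to 9. Fits without Control 24 h replicate 2 are given below because of these values, so they were picked after the data were seen. The per-sample median of the unmethylated regions ranged from 0% to 0.616% in the Ikaros series and from 0.228% to 0.522% in the Control series, and that of the methylated regions from 96.1% to 97.0% and from 96.2% to 97.0%.

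LncRNA promoter regions were mostly either unmethylated or fully methylated, with a larger methylated share than the regions near protein-coding starts. Their mean level over the 36 samples was under 10% in 131 regions (34.6%), between 10% and 90% in 53 (14.0%) and over 90% in 195 (51.5%), with a median of 90.7%. These classes are called unmethylated, partly methylated and methylated here. Of the 12877 autosomal clusters near protein-coding starts, 58.5% were unmethylated and 32.2% methylated, with a median of 1.15%. That set takes in the 1710 clusters at lncRNA starts that were left out, so the comparison covers only lncRNA starts away from coding starts. Of the 3135 autosomal clusters near neither kind of start, 10.0% were unmethylated and 71.1% methylated. The lncRNA promoter regions thus lay between these sets in both shares, as the plot of levels by set shows.

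**Figure D1:**
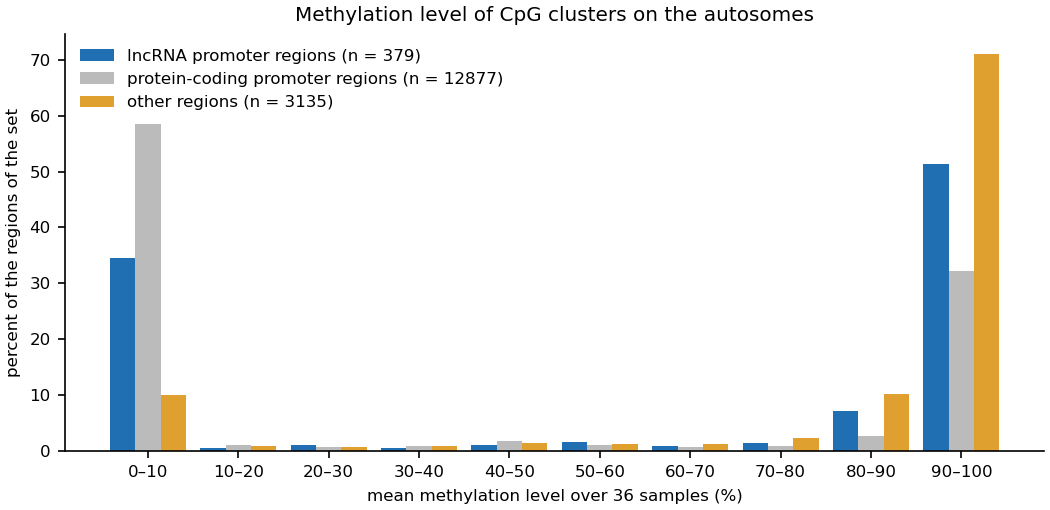
Percent of regions in each 10-point bin of the mean methylation level over 36 samples, for 379 lncRNA promoter regions, 12877 regions near protein-coding starts and 3135 other autosomal regions. The lncRNA promoter regions pile up at both ends, with 34.6% in the lowest bin and 51.5% in the highest, and 27 of them between 80% and 90%.

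The shares varied between the types of lncRNA. LincRNA genes, which lie between coding genes, had 80 unmethylated and 96 methylated regions of 200, with a median level of 86.6%. Antisense genes, which overlap a coding gene on the other strand, had 16 unmethylated and 69 methylated regions of 104, with a median of 95.1%. Genes of the type processed_transcript had the lowest median, 47.8%, with 34 unmethylated and 27 methylated regions of 71. The 4 regions of bidirectional_promoter_lncRNA genes held 1 unmethylated and 3 methylated regions. Position relative to coding genes went with the level as well: inside a protein-coding gene 15 of 104 regions were unmethylated and 73 methylated, and outside 116 of 275 were unmethylated and 122 methylated. Over a coding exon, 51 of 63 regions were methylated.

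The classes overlapped in base composition over their middle 50% of regions, which spanned a GC content of 63.4% to 71.5% in unmethylated, 57.5% to 65.4% in partly methylated and 59.9% to 69.2% in methylated regions. The median GC content was 66.7%, 61.0% and 64.6%, and the median ratio of observed to expected CpG was 0.883, 0.731 and 0.817. Only 2 of the 379 regions (0.528%) consisted by more than 50% of soft-masked repeats, against 0.124% of the clusters near protein-coding starts and 9.86% of those near no start. Along the promoter, in 6 bins of distance from the start, the median level over the regions with positions in a bin ran from 78.9% (500 to 250 bp before the start) to 91.4% (2000 to 500 bp before it), with 85.1% in the 250 bp before the start and 90.1% in the 250 bp after it. The unmethylated share of the regions in a bin ran from 27.5% (500 to 2000 bp after the start) to 42.4% (the 250 bp before it). Replicates of a condition agreed closely at the ends of the scale, with a median SD of 0.455 percentage points in the unmethylated and 1.66 in the methylated regions, and 3.52 in the partly methylated ones.

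The lncRNA genes linked to blood cells were unmethylated at every region measured. The list held 18 symbols, of which 4 genes had regions, 8 in number, with levels from 0.137% to 0.702%. They were Mir17hg, the host of the miR-17-92 cluster that is needed for the survival of pro-B cells, Dleu2, the host of miR-15a and miR-16-1, Mir155hg, the host of miR-155, and Lockd, which lies downstream of the cell-cycle inhibitor gene Cdkn1b. Mir155hg had levels from 0% to 2.98% with a median of 0.210% in the Ikaros samples. In the Control samples Mir155hg had levels from 0% to 0.808% with a median of 0.327%. The region of Mir17hg nearest the start lay between 0% and 0.516% in the Ikaros samples and between 0% and 0.968% in the Control samples. The ranges of the series overlapped at each of the 8 regions and none differed between the series. Dleu2 had 4 regions, of 0.236%, 0.301%, 0.320% and 0.702%, at several starts along the gene. Pvt1 had a region with no complete position.

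On the list of small RNA host symbols, 13 regions were unmethylated and 3 methylated, of 16 regions at 11 genes. The unmethylated ones included the regions of Mir17hg, Dleu2 and Mir155hg, which were counted on the blood list as well. The other unmethylated regions had Snhg symbols, for example Snhg6 with a mean of 0.210%, Snhg8 with 0.210% and Snhg12 with 2.13%. Snhg genes host small nucleolar RNAs that guide the modification of ribosomal RNA, whereas Snhg7os, also among them, is named as an opposite-strand transcript. Methylated were Mir124-2hg with a mean of 94.3% and the regions of Mir9-3hg with 94.6% and 96.1%, hosts of miRNAs of the nervous system. In the Ikaros samples Mir124-2hg ranged from 85.0% to 98.8% with a median of 95.2%. In the Control samples it ranged from 90.3% to 98.0% with a median of 94.0%, so the series overlapped.

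Matching the regions to RefSeq hairpins inside the lncRNA genes gave 18 host genes with 28 hairpins, of which 9 genes had only unmethylated regions and 6 only methylated ones. The unmethylated hosts included 6720427I07Rik, the host of let-7d, let-7f-1 and let-7a-1, at 0.207%, Lncppara, the host of let-7c-2 and let-7b, at 0.960%, and E130102H24Rik, the host of miR-101a, at 0.319% and 0.517%. The methylated hosts were Mir9-3hg, Gm3764, the host of miR-9-1, at 97.0%, Gm3294, the host of miR-129-1, at 95.0%, AL805899.1, the host of miR-31, at 96.8%, Meg3 at 96.6% and Gm37233 at 96.0%. The third miR-9 gene, miR-9-2, lies in C130071C03Rik, whose region had an intermediate level of 25.0%.

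Structural and other widely studied lncRNAs were unmethylated with the exception of Miat. Of 13 symbols on the list, 4 had regions of their own. Malat1 was at 0.170%, Epb41l4aos at 0.288% and the regions of Lncpint, which is transcribed under the control of p53, at 0.598% and 3.48%. Miat, which is expressed mainly in neurons, was at 96.8% over its start and at 97.7% inside the gene. The start of Neat1, the scaffold of paraspeckles, shared a region with Frmd8os and was at 0.410%. Tug1, Gas5 and Rmrp were left out because a protein-coding start lay within 1000 bp.

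LncRNAs of developmental loci were methylated in most regions. The list of symbols of Hox, homeobox and other patterning loci took in 20 regions of 15 genes, of which 16 were methylated, 3 partly methylated and 1 unmethylated, with a median of 95.5%. Hoxaas3, in the Hoxa cluster, had the highest level of all 379 regions at 98.5%. Fendrr was at 98.2%, and its values ran from 92.5% to 100% in the Ikaros samples and from 96.4% to 100% in the Control samples. The lowest of the methylated and partly methylated regions was that of Hoxa11os at 83.9%. The one unmethylated region was the start of Crnde, next to Irx5, at 0.299%, with samples from 0% to 3.70% in the Ikaros series and from 0% to 0.558% in the Control series. Of the 30 regions of genes named as opposite-strand transcripts, a list that shares members with the developmental one, 6 were unmethylated, 5 partly methylated and 19 methylated.

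Only 2 of the 14 symbols on the list of imprinted lncRNAs had a region, and 1 of them was intermediate. The region of Kcnq1ot1, whose first base lay 938 bp downstream of the start and of which 10 positions had a value in every sample, had a mean level of 40.5%. It ranged from 18.6% to 57.6% with a median of 42.7% in the Ikaros samples and from 27.4% to 58.2% with a median of 36.1% in the Control samples. The ranges overlapped from 27.4% to 57.6%, and the difference of 0.18 ± 0.17 (SE) in M-value did not pass the test (limma, adjusted p = 0.678). Meg3, a maternally expressed lncRNA whose gene also contains miR-770, was at 96.6% in a region 461 bp downstream of its start. H19 and Airn had no cluster at their starts, and Nespas was left out because of a protein-coding start.

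**Figure D2:**
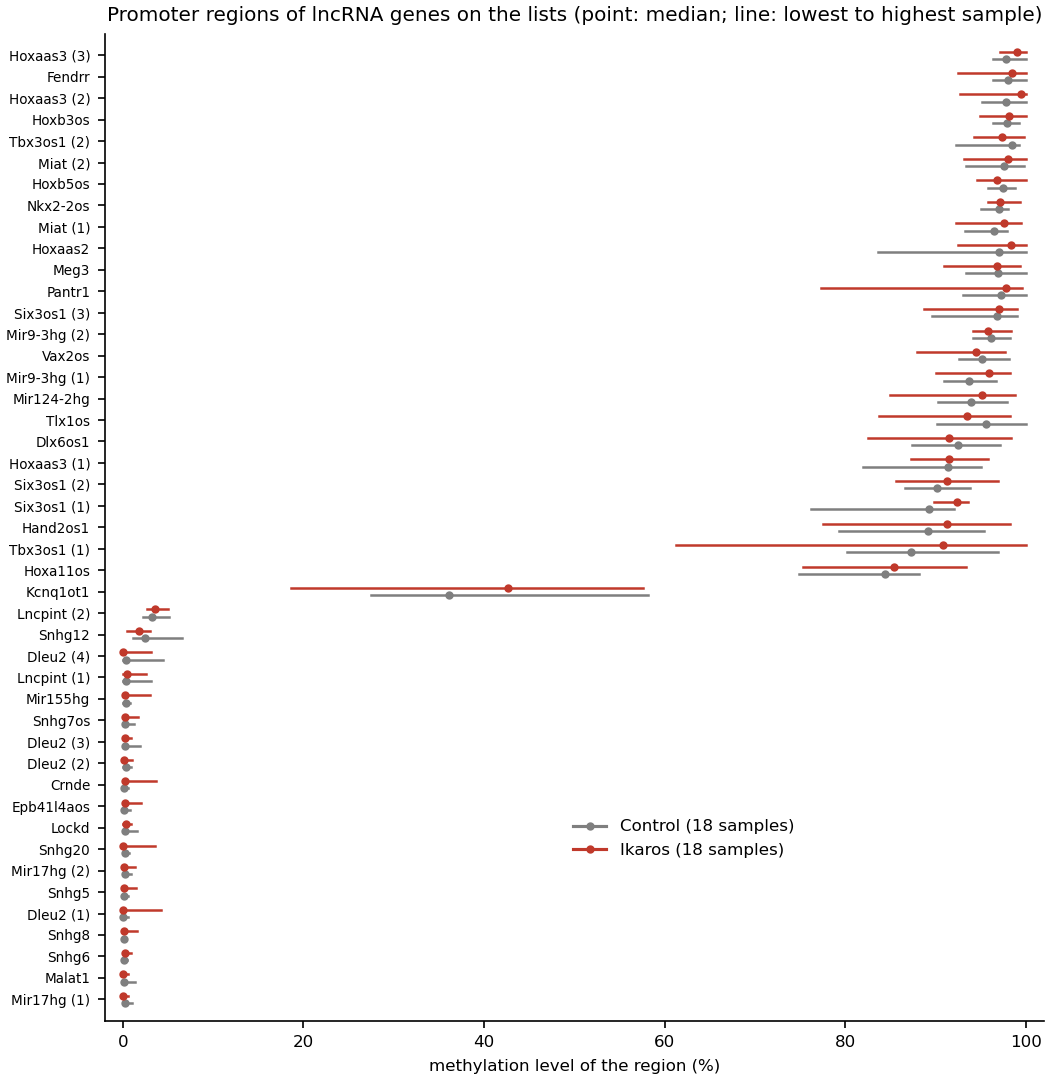
Methylation level (%) of each region of the lncRNA genes on the lists, ordered by the mean level, with the median (point) and the lowest and highest of 18 samples (line) for Control in grey and Ikaros in red. Regions from Mir17hg to Lncpint lie under 10%, the medians of those from Hoxa11os to Hoxaas3 over 80%, and Kcnq1ot1 alone lies between.

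Regions of 1 gene mostly shared a class. Of 38 genes with several regions, 32 had all of them in 1 class, and the median spread between regions of a gene was 1.43 percentage points. Gm37494 had regions at 0.355% and 97.9%, and 2900072N19Rik had regions at 18.3% and 96.5%. The level was also even within most regions, with a median range of 2.70 percentage points over the complete positions, although the authors smoothed neighbouring positions. In 49 regions the range was over 20 percentage points and in 11 over 50.

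The 3 regions with the largest range over their positions each held 1 crossing of the 50% level, between the same neighbouring positions in both series. In Gm26840 the mean level passed 50% between 608 bp and 623 bp downstream of the start, and the positions spanned 0.599% to 93.8%. In Gm44970 it passed between 398 bp and 260 bp upstream, with positions from 1.63% to 93.4%. In 2900052L18Rik it passed between 209 bp and 317 bp downstream, with positions from 3.10% to 91.8%. The level at the last position was higher than at the first in 36 of 36 samples in each of the 3 regions. The sequence of Gm44970 printed above covers its crossing, and the CG-dense left part held the low levels.

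The largest spread between replicates was found in partly methylated regions. The SD within conditions was 13.0 percentage points in Gm15556, an antisense gene in Foxp4, 12.8 in AC132452.1 and 12.6 in Gm45889. Gm15556 ranged from 18.0% to 71.2% in the Ikaros samples and from 21.4% to 74.1% in the Control samples. None of the 3 passed the test between the series.

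The difference between the series addressed whether lncRNA promoters were methylated to another level in the cells that carry Ikaros. The M-value, the log2 ratio of the methylated to the unmethylated share, was fitted with limma with the time point as a factor, over all 16734 clusters with complete values. At an adjusted p under 0.05, 24 of the 379 regions (6.33%) differed, against 4.84% of all clusters. The M-value was higher in the Ikaros series in 18 of them and lower in 6, against 3.71% and 1.13% of all clusters. The count fell to 15 without replicate 1 (12 higher and 3 lower, against 2.38% of all clusters) and without replicate 2 (10 higher and 5 lower, against 3.24%). It fell to 10 without replicate 3 (5 higher and 5 lower, against 2.20%) and with the sample shares of empty and extreme values as covariates (6 higher and 4 lower, against 2.00%). Without Control 24 h replicate 2, 22 regions passed (5.80%, against 4.97% of all clusters), and Zswim6 (the start region), 1700030C10Rik and 1700016P03Rik did not (adjusted p = 0.0651, 0.0502 and 0.0511), while 1 other region, 4632428C04Rik, did. Among the unmethylated regions 7 of 131 passed, against 2.94% of all unmethylated clusters. The shares were 9 of 53 among the partly methylated, against 18.8%, and 8 of 195 among the methylated, against 3.28%. By type, 16 of 200 lincRNA regions, 7 of 71 processed_transcript regions and 1 of 104 antisense regions passed.

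Most of the differences were small. Over the 379 regions the median difference in level was 0.0591 percentage points, with 211 regions higher in the Ikaros series. Only 7 of the 24 regions differed by more than 5 percentage points as well, which is 1.85% of the 379 against 1.61% of all clusters. In none of the 379 regions did the Ikaros samples and the Control samples fail to overlap, as was the case in 0.0478% of all clusters. With Control 24 h replicate 2 left out, the samples did not overlap at 1 region, that of 2810410L24Rik, against 0.221% of all clusters.

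**Figure D3:**
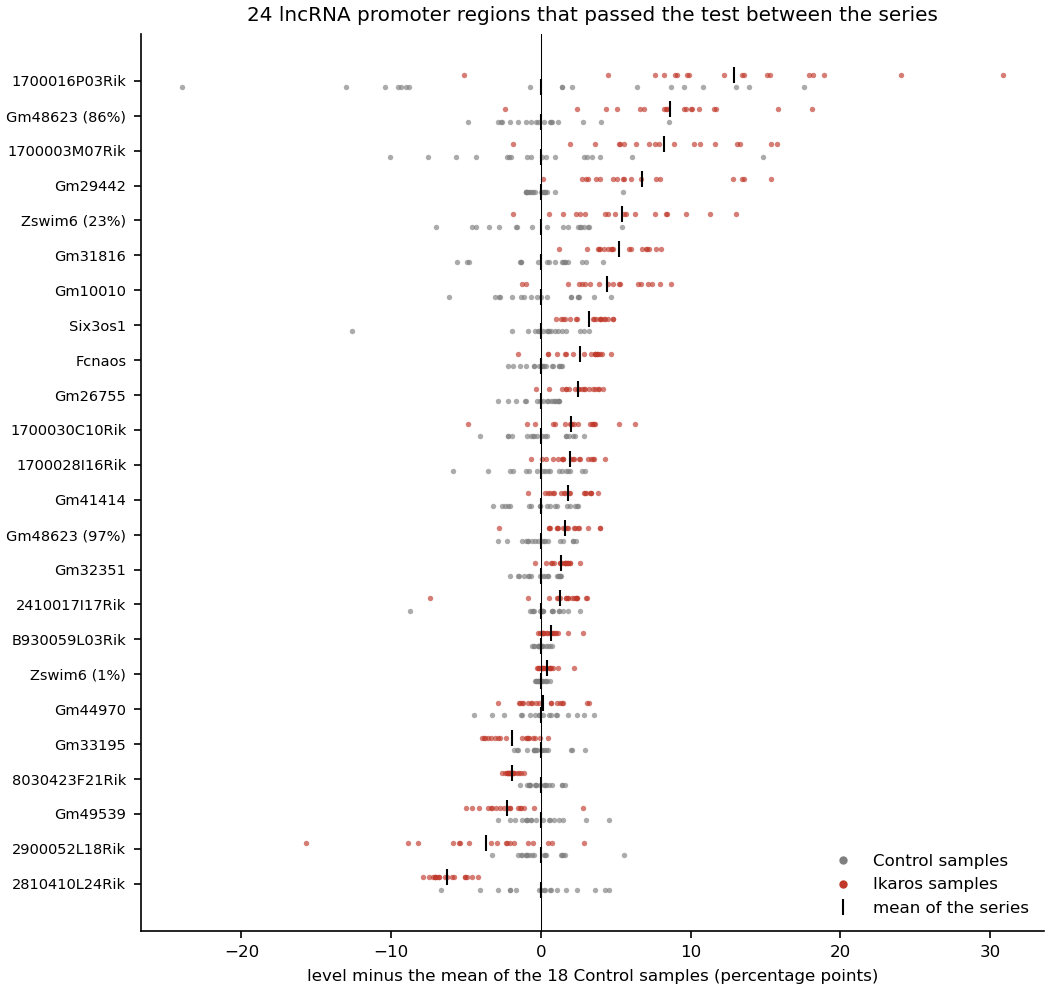
Level of each sample minus the mean of the 18 Control samples (percentage points) for the 24 lncRNA promoter regions that passed the test between the series, Control in grey and Ikaros in red, with the mean of each series as a bar and the mean level added for genes with several rows. The means run from -6.26 at 2810410L24Rik to 12.9 at 1700016P03Rik, and the samples of the series overlap in every row.

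Among the regions that passed, the largest decrease in level lay over the start of 2810410L24Rik, an lncRNA without a known role. Its level ranged from 1.83% to 5.49% with a median of 3.10% in the Ikaros samples. In the Control samples it ranged from 3.07% to 14.3%, around a median of 9.97%. The 1 Control sample within the Ikaros range was Control 24 h replicate 2 at 3.07%, and the other Control samples started at 5.63%. The M-value decreased by 1.23 ± 0.13 (SE, adjusted p = 7.11e-08), and by 1.30 without that library (adjusted p = 2.90e-09). Leaving out a sample that lies on the Ikaros side widens the difference, so the second value is not separate support. All 49 complete positions were lower in the Ikaros series, and 14 of the 24 regions had all positions in the direction of their call. The largest difference in 2810410L24Rik, 12.4 percentage points, lay 196 bp downstream of the start, where the Ikaros mean was 5.57% and the Control mean 18.0%. The printed sequence runs from 62 bp before to 237 bp after the start, and its mean levels were 2.31% in the Ikaros series and 7.96% in the Control series.

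The next CpG cluster along chromosome 11 lay at the start of another lncRNA gene, 2900052L18Rik, and was lower as well. It ranged from 38.9% to 57.4% with a median of 51.9% in the Ikaros samples and from 51.3% to 60.1% with a median of 54.1% in the Control samples, which overlapped. The difference in M-value was -0.64 ± 0.13 (SE, adjusted p = 0.00124). On its methylated side, over 47 positions, the mean was 82.3% ± 7.14 in the Ikaros series and 86.6% ± 2.64 in the Control series (SD, n = 18). On its low side, over 31 positions, the means were 3.34% ± 1.53 and 6.01% ± 1.83 (SD, n = 18).

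Other regions with a low level were still lower in the Ikaros series. The region of 8030423F21Rik ranged from 0.449% to 1.92% with a median of 1.02% in the Ikaros samples and from 1.66% to 4.70% with a median of 2.88% in the Control samples. The ranges overlapped only between 1.66% and 1.92%, and the difference in M-value was -0.65 ± 0.08 (SE, adjusted p = 2.31e-06). In level, 31 of its 39 positions were lower in the Ikaros series. The difference was largest at the position 134 bp downstream of the start, with 5.33% against 20.6%. Gm49539 had medians of 2.67% and 4.52%, and Gm33195 of 2.77% and 4.28%, both with overlapping samples. Their differences in M-value were -0.99 and -0.81 with adjusted p-values of 0.00179 and 0.00596, and neither call held with the sample shares described further on as covariates (adjusted p = 0.394 and 0.607).

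Gm44970 showed opposite differences on the sides of its crossing. On the low side, over 55 positions, the level ranged from 0.695% to 3.58% with a median of 1.51% in the Ikaros samples and from 1.64% to 6.12% with a median of 4.67% in the Control samples. On the high side, over 22 positions, the mean was 79.8% ± 5.37 in the Ikaros series and 72.6% ± 6.97 in the Control series (SD, n = 18). The mean level of the whole region was therefore nearly equal, 24.0% in the Ikaros and 23.9% in the Control series, while the M-value, which weights changes near 0 more strongly, was lower by the model (-0.66 ± 0.13, SE, adjusted p = 0.00102). Fitted on the level instead, the difference was 0.122 percentage points in the other direction and did not pass (adjusted p = 0.958).

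**Figure D4:**
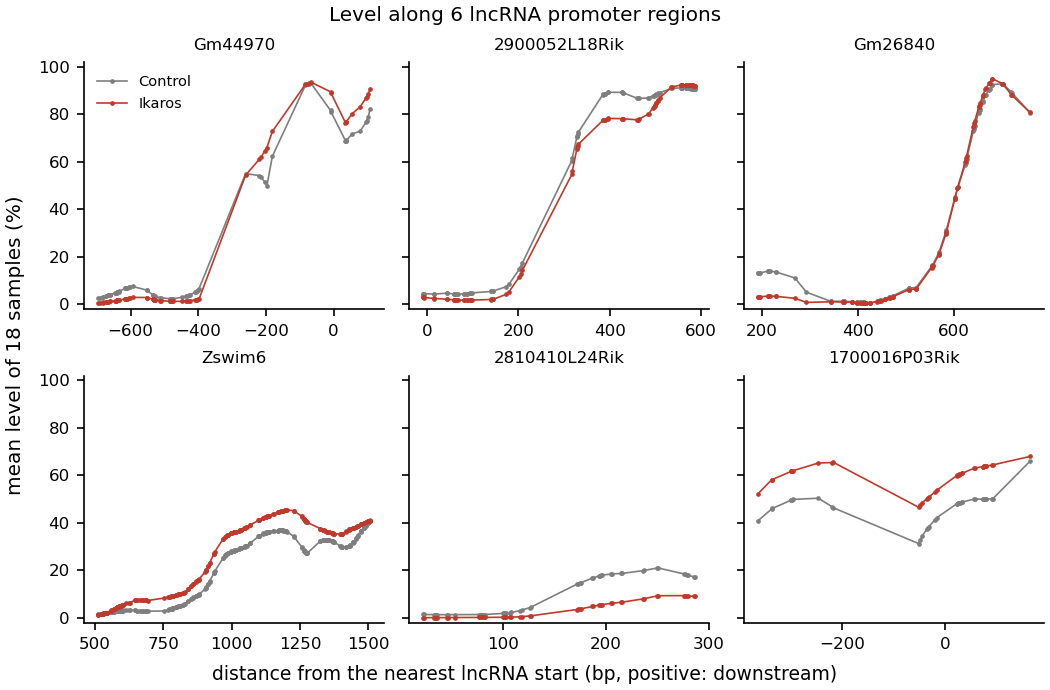
Mean level of 18 samples (%) at each complete position of 6 lncRNA promoter regions against the distance (bp) from the nearest lncRNA start, Control in grey and Ikaros in red. The crossings of Gm44970, 2900052L18Rik and Gm26840 fall between the same positions in both series, and the largest gap of 2810410L24Rik, 12.4 percentage points, lies downstream of the start.

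The increase with the smallest p-value was at Gm29442, in a region that was nearly unmethylated in the Control series. Its level ranged from 1.61% to 16.8% with a median of 6.96% in the Ikaros samples. In the Control samples it ranged from 0.450% to 6.92%, around a median of 0.995%. The highest Control sample was again Control 24 h replicate 2, and the other 17 Control samples lay at or below 2.42%, so that without it the series overlapped between 1.61% and 2.42%. The M-value was higher by 1.77 ± 0.19 (SE, adjusted p = 1.22e-07), and by 1.85 without that library (adjusted p = 1.70e-08). Here too the second fit left out the highest Control sample and is not separate support. In level, 23 of its 29 positions were higher in the Ikaros series. The gap was widest at the position 695 bp downstream of the start, with 15.2% against 1.88%, which is the first CG of the printed sequence.

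The other unmethylated regions that were higher differed by less than 1 percentage point. B930059L03Rik had a mean of 1.25% ± 0.726 in the Ikaros series and 0.606% ± 0.351 in the Control series (SD, n = 18). The start region of Zswim6 had 1.11% ± 0.599 and 0.713% ± 0.269 (SD, n = 18), and its call was lost on leaving out any of 20 of the 36 samples. Zswim6 encodes a zinc finger protein, and GENCODE M21 gives it as a processed_transcript gene, whereas RefSeq places a protein-coding start there. The next region, at 510 bp downstream of the start, was partly methylated. It ranged from 18.8% to 33.6% with a median of 25.9% in the Ikaros samples and from 13.6% to 26.0% with a median of 21.5% in the Control samples, and its M-value was higher by 0.57 ± 0.12 (SE, adjusted p = 0.00279).

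The regions with the largest increases in level were partly methylated. The region over the start of 1700016P03Rik ranged from 41.5% to 77.5% with a median of 59.4% in the Ikaros samples. In the Control samples it ranged from 22.7% to 64.2%, around a median of 48.1%. The samples overlapped over much of this range. The difference of 12.9 percentage points, 0.94 ± 0.26 in M-value (SE), passed with an adjusted p of 0.0316, and the call was lost on leaving out any of 7 single samples. The other region of this miR-212 and miR-132 host, downstream, had a mean of 7.12%. Gm48623 had regions at 252 bp and 600 bp from its start. The farther one had a median of 90.9% in the Ikaros and 81.6% in the Control samples, and the highest Control sample, at 90.4%, was Control 24 h replicate 2, above the other Control samples, which reached 85.9%. Its M-value was higher by 1.34 ± 0.26 (SE, adjusted p = 0.001), and by 1.37 without that library (adjusted p = 0.000969), which is again not separate support.

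In 1700003M07Rik the level ranged from 51.3% to 68.9% in the Ikaros samples and from 43.1% to 68.0% in the Control samples, with medians of 60.9% and 52.9%. The difference in M-value was 0.50 ± 0.11 (SE, adjusted p = 0.00423). Gm31816 ranged from 82.2% to 89.0% with a median of 85.8% in the Ikaros samples and from 75.4% to 85.2% with a median of 81.8% in the Control samples, and its M-value was higher by 0.51 ± 0.08 (SE, adjusted p = 0.000117). All 20 positions of the printed Gm31816 sequence were higher in the Ikaros series, by 1.97 to 12.5 percentage points. Neighbouring positions were smoothed together, so they are not separate support. Such full agreement was found in 14 of the 24 regions that passed, while the start region of Zswim6 had 59 of 124 positions in the direction of its call and Fcnaos 23 of 36. Gm10010 had medians of 87.1% and 82.3%, with an adjusted p of 0.00299, and lost its call with the shares as covariates (adjusted p = 0.0644).

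The 8 methylated regions that passed were all higher in the Ikaros series, by at most 3.19 percentage points. Gm26755, whose region lies over an exon of Neurod1, a gene of neuronal and endocrine differentiation, ranged from 91.8% to 96.4% in the Ikaros samples and from 89.4% to 93.4% in the Control samples, with an adjusted p of 4.21e-06. Six3os1, the transcript opposite the eye and forebrain gene Six3, had a median of 92.4% in the Ikaros and 89.3% in the Control samples, with an adjusted p of 0.00309. Its 3 regions lay at 90.4%, 90.7% and 96.2%, and the first of them passed. Fcnaos, in Ccdc183, was the antisense gene that passed, with medians of 95.9% and 92.5%. The other 5 were Gm32351, the nearer region of Gm48623, Gm41414, 1700028I16Rik and 2410017I17Rik, with adjusted p-values from 0.00095 to 0.0483. The call of 2410017I17Rik was lost on leaving out any of 27 single samples. The remaining region, 1700030C10Rik, was partly methylated at 89.0% and lost its call on leaving out any of 19.

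Within batches the direction of the difference was compared with that of the whole fit. In batches 1 and 4, over 6 time points each, and in batch 3, over 5, all 24 regions had the sign of the whole fit. That fit includes these samples and was used to choose the 24 regions. The agreement was thus largely fixed in advance and is not separate support. In batch 2, which holds 1 sample of each series at 0 h, 18 of 24 had it. In a fit that adds each sample's shares of empty values and of levels at exactly 0 or 1, 10 of the 379 regions (2.64%, against 2.00% of all clusters) passed, all among the 24. They were 2810410L24Rik, 2900052L18Rik, 8030423F21Rik, Gm44970, Gm29442, Gm31816, Gm26755, 1700003M07Rik, Gm32351 and the nearer region of Gm48623. The other 14 lost their call. Of those, the adjusted p was 0.0539 at B930059L03Rik, 0.106 at Fcnaos, 0.166 and 0.793 at the farther and the start region of Zswim6, 0.200 at Gm41414, 0.250 at 1700016P03Rik, 0.316 at Six3os1, 0.327 at the farther region of Gm48623, 0.433 at 1700030C10Rik, 0.502 at 2410017I17Rik and 0.680 at 1700028I16Rik. These shares differed between the series, and their part in those differences was not tested.

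At 0 h alone, 2 regions passed (0.528%, against 0.215% of all clusters). 2810410L24Rik had 3.05% ± 1.77 in the Ikaros series and 12.4% ± 2.48 in the Control series (SD, n = 3, limma adjusted p = 0.0185). Gm31816 had 87.4% ± 1.36 and 77.1% ± 2.24 (SD, n = 3, limma adjusted p = 0.0152). No region passed at 0 h without Control 0 h replicate 2, against 0.418% of all clusters, or without Ikaros 0 h replicate 2, against 0.209%, and 4 regions (1.06%) passed without Control 0 h replicate 1, against 0.263% of all clusters, or without replicate 3, against 0.305%. Of 26 regions that passed on the 2 h to 24 h samples alone, 18 (69.2%) had the same direction at 0 h, and 9 (34.6%) also had an unadjusted p under 0.05 there, against 80.8% and 36.3% of the 776 clusters of any kind that passed on those samples.

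At the later time points few regions passed singly. At 2 h, 2810410L24Rik and Gm49736 passed, against 0.203% of all clusters, and at 12 h Gm29442 passed, with 9.97% ± 3.95 against 0.733% ± 0.302 (SD, n = 3, limma adjusted p = 0.0263), against 0.287% of all clusters. At 24 h the farther region of Zswim6 and Gm49539 passed, against 0.371%. Gm49539 had 1.61% ± 1.45 in the Ikaros and 7.30% ± 2.66 in the Control samples at 24 h (SD, n = 3, limma adjusted p = 0.039). Without Control 24 h replicate 2 neither passed at 24 h (limma adjusted p = 0.0956 for Gm49539 and 0.0843 for Zswim6), and Gm29442 (limma adjusted p = 0.00883) and 9330171B17Rik passed there, against 0.598% of all clusters. None passed at 6 h and 18 h, against 0.0777% and 0.125% of all clusters. At an unadjusted p under 0.05 were 8.44% of the regions at 6 h, against 5.81% of all clusters, and 7.65% at 18 h, against 7.71%.

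No lncRNA promoter region passed the test for change over time. With limma, 0 of 379 passed in the Ikaros series (0% of all clusters) and 17 (4.49%) had an unadjusted p under 0.05, against 5.22% of all clusters. In the Control series 0 passed, against 0.012% of all clusters, and 19 (5.01%) had an unadjusted p under 0.05, against 4.83%. A different course over time in the series passed in 0 regions (0% of all clusters), with 22 (5.80%) at an unadjusted p under 0.05, against 5.12%. The lowest adjusted p-values were 0.380 for Gm39318, 0.755 for Zswim6 and 0.335 for Gm49736 in the 3 tests. The range of the 6 time point means had a median of 2.10 percentage points in the Ikaros and 1.89 in the Control series, and the largest was 25.7 at 2810429I04Rik and 28.7 at Gm16201. These regions did not pass with limma, and no limit of detection was computed for change over time. According to the methods the 0 h cells were collected separately, so changes from 0 h also compare separate collections.

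**Figure D5:**
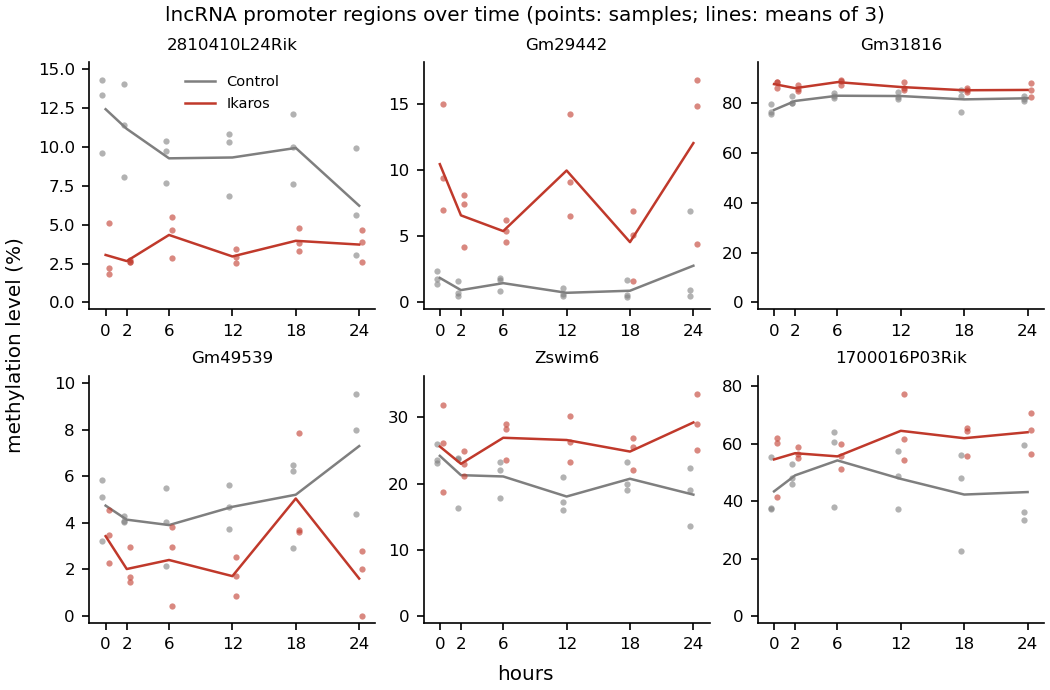
Methylation level (%) against time (hours) for 6 lncRNA promoter regions, Control in grey and Ikaros in red, with points for samples and lines for means of 3. The Ikaros and Control lines of 2810410L24Rik, Gm29442 and Gm31816 are already apart at 0 h, at 3.05% and 12.4% for 2810410L24Rik, and the single high Control point of Gm29442 at 24 h, 6.92%, is replicate 2.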

How the data were processed

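DNA methylation was measured by RRBS, which sequences bisulfite-converted MspI fragments, in 36 samples of the B3 cell line. According to the methods and the submitters' processing notes, reads were trimmed, mapped to GRCm38 (mm10) with Bismark 0.10.1, and levels were smoothed within CpG clusters with BiSeq, so neighbouring positions are not independent. The authors deposited, for every listed position, its level after smoothing as a fraction, shown here in percent, and its M-value on a log2 scale, computed from levels kept away from 0 and 1. The tables give no coverage, so no coverage minimum could be set and precision rests on the spread between replicates. The methods describe replicates as repeats of the time course in separate batches, and state that the 0 h cells were collected separately.

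Clusters were averaged over positions with a value in all 36 samples with Python 3.11.15, and placed by the GENCODE M21 and RefSeq annotations of GRCm38. M-values were tested with limma 3.58.1 in R 4.3.3 with Benjamini-Hochberg adjustment over 16734 clusters, a step checked on simulated data. Change over time and a different course used moderated F tests. Named regions were all that passed the test between the series, the members of the imprinted, structural and blood lists, the extremes of the small RNA host and developmental lists, and the 3 with the largest spread within conditions and the largest range over positions; other genes named beside counts were picked after their values were seen. The members and lists were chosen with earlier results of these data known. Alternatives were the level in place of the M-value, replicate number or batch as a block, all listed positions, autosomal clusters, other variance settings, thresholds, covariates and definitions of the regions, and each sample and replicate number left out.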

Additional observations from a re-analysis of the deposited data

How the results depend on the processing

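The count of 24 regions that differed between the series stayed within 1.5 times, at 17 to 26, with the level, all listed positions, autosomal clusters, trend and robust variance settings, an adjusted p under 0.01, the 2 h to 24 h samples, and, chosen after seeing the data, those samples without Control 24 h replicate 2. It was 10 with the shares of empty and extreme values as covariates and 7 with a difference over 5 percentage points required as well. Leaving out a replicate number gave 10 to 15, with the lowest count without replicate 3, and leaving out a single sample 21 to 26. Of all clusters, 810 passed in the main fit, 464 at an adjusted p under 0.01, 906 on the level and 761 with all listed positions. The trend and robust settings gave 747 clusters, autosomal clusters 794 and the covariates 335. On the 2 h to 24 h samples 776 clusters passed, and 813 without Control 24 h replicate 2. Leaving out a replicate number gave 368 to 543 clusters, and leaving out a single sample 714 to 863. Of the 24 regions, 19 kept their call on the level scale, and Gm44970 reversed there (0.122 percentage points higher in the Ikaros series). With all listed positions 21 kept it, and with the batch as a block 22. At 0 h the count of 2 became 0 at an adjusted p under 0.01 and 1 with the trend and robust settings, 0 to 1 without a replicate number and 0 to 4 without a single sample (0 without Control 0 h replicate 2 or Ikaros 0 h replicate 2). In the main fit 36 of all clusters passed at 0 h, with 12 at an adjusted p under 0.01 and 26 with the trend and robust settings. Change over time stayed at 0 in Control in every setting. It rose to 1 in Ikaros without Ikaros 18 h replicate 3, where 3 of all clusters passed. A different course gave 1 without replicate 3, where 5 of all clusters passed. Other settings gave 0.

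With the replicate number as a block 24 regions passed (17 higher, 7 lower), against 820 of all clusters, and 22 were of the same 24 regions. Same-numbered Ikaros and Control samples of a time point shared a batch. Their deviations from the condition means correlated from -0.0479 to 0.0240 over 18 pairs, so little shared deviation was seen.

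The median level of 90.7% was 89.1% with no coding start within 2000 bp, 84.4% with at least 20 CG dinucleotides and 86.6% for lincRNA genes. The unmethylated share of 34.6% was 43.9% with at least 20 dinucleotides and 40.0% for lincRNA genes, and the methylated share of 51.5% was 46.1% with at least 20 dinucleotides and 58.6% with limits of 20% and 80%. The share that differed between the series ran from 6.19% to 8.77% under these definitions, against 4.84% of all clusters. With regions near RefSeq coding starts left out, an alternative chosen after seeing the data, 352 regions remained. Of these 5.40% differed, which is near the 4.84% of all clusters.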
